A study of Mus musculus with 5 samples.

Results

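The cytosolic ribosomal protein (RP) genes were examined in RNA sequencing libraries of sorted dermal group 2 innate lymphoid cells (dILC2s). The 88 genes, of 47729 rows in the count table, were chosen by symbol alone: Rpl or Rps with a number, together with Rpsa, Rplp0, Rplp1 and Rplp2, leaving out names of pseudogenes and the S6 kinases. They comprised 31 genes for proteins of the small (40S) subunit, 46 for proteins of the large (60S) subunit, 5 paralogues with introns of their own (Rpl3l, Rpl7l1, Rpl22l1, Rpl39l and Rps27l) and 6 single-exon copies (Rpl6l, Rpl10l, Rps3a2, Rps3a3, Rps4l and Rps12l1). Of these 6, all except Rpl10l are annotated as pseudogenes, although their symbols do not say so. The study asked how dILC2s of mice without Rag1, in which mature T and B cells do not form, differ from those of wild-type (WT) mice. Cells were sorted from the skin of untreated female C57BL/6 mice aged 8 to 13 weeks and were not stimulated after sorting. There were 3 WT libraries, numbered 5, 6 and 13, each from a pool of 10 mice, and 2 Rag1-/- libraries, numbered 2 and 7, each from a pool of 9 mice. The labels count 16 Rag1-/- mice, fewer than 2 such pools would hold. The Rag1-/- mice carry the germline deficiency in every cell, so that cells sorted from them also came from a host without T and B cells.

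Each ribosome carries 1 copy of nearly every RP, and the 40S subunit reads the mRNA while the 60S subunit joins the amino acids. RP mRNAs are among the most abundant of a cell, most begin with a pyrimidine tract through which mTORC1 and LARP1 set their translation, and MYC raises ribosome production in activated lymphocytes. The mouse genome also holds many processed copies of RP mRNAs, so that short reads of one gene can match several places.

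Total counts were 32939428 to 39477243 in the WT libraries, 8050562 in Rag1-/- pool 2 and 38922750 in Rag1-/- pool 7. The libraries were not alike in cell content. Of 38 leukocyte markers, 25 were called higher in Rag1-/- (median log2 fold change 1.99), against 3.57% of all genes tested. Of 32 keratinocyte markers, 12 were called lower (median -1.50), against 2.16% of all genes. Markers of ILC2s (6 of 20), type 3 innate lymphoid cells (6 of 12, with 1 lower) and T cells (5 of 14) were also called higher. So were 2 of 9 markers of natural killer and type 1 innate lymphoid cells. The other marker lists had none called. Keratinocyte markers took 5.75%, 4.60% and 4.0% of the counts in WT pools 5, 6 and 13, 0.990% in pool 2 and 2.35% in pool 7, and the leukocyte markers took 0.175% to 0.374% in WT, 1.15% in pool 2 and 0.971% in pool 7. The dILC2 markers Gata3 and Il7r and the leukocyte gene Ptprc were detected in every library. The cell type field of the Rag1-/- libraries reads type 3, although the protocol describes dILC2s for both genotypes. Rag1 itself had 0 to 5 counts in the WT libraries, 5 in pool 2 and 48 in pool 7, and since counts cover the whole gene and its missing part is not given in the sources used here, this does not check the genotype. WT and Rag1-/- are used below as the libraries are labelled.

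RP genes together took 1.63%, 1.55% and 1.60% of all counts in WT pools 5, 6 and 13, 1.46% in Rag1-/- pool 2 and 2.49% in Rag1-/- pool 7. The WT pools were close to each other (1.59% ± 0.0388, SD, n = 3), and the Rag1-/- pools lay on either side of them (1.97% ± 0.724, n = 2). The ratio of group means was 0.31 on the log2 scale, 0.64 without pool 2 and -0.12 without pool 7, so its direction rested on pool 7. In bulk libraries, a different share of cells and a different amount of RNA per cell cannot be told apart. The median keratinocyte marker was below and the median leukocyte marker above its WT mean in both Rag1-/- pools, whereas the RP share was high in pool 7 alone. Their part in the RP result was not tested.

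**Figure D1:**
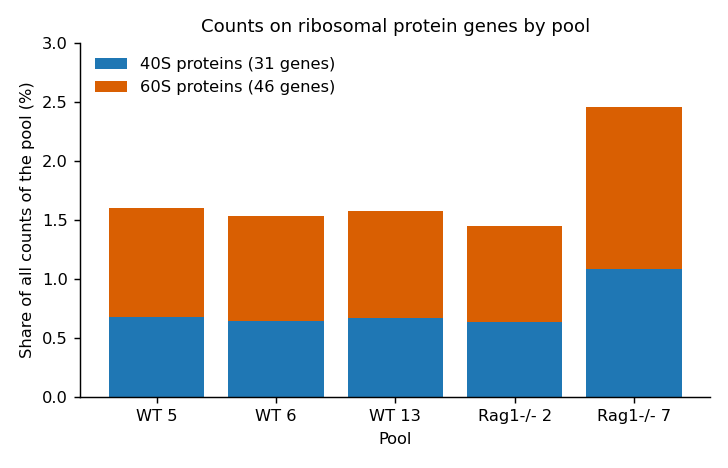
Share of all counts (%) on the 31 genes of 40S proteins (blue) and the 46 genes of 60S proteins (orange), stacked, in each of the 5 pools. The WT pools and Rag1-/- pool 2 stand close to 1.5%, and Rag1-/- pool 7 stands above all of them.

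The 40S genes took 0.679%, 0.638% and 0.664% of counts in the WT pools, 0.632% in pool 2 and 1.09% in pool 7. The 60S genes took 0.925%, 0.893% and 0.910% in the WT pools, 0.815% in pool 2 and 1.37% in pool 7. Both subunits thus had their highest share in pool 7 and their lowest in pool 2. The 40S to 60S ratio of summed counts was 0.734, 0.715 and 0.730 in WT and 0.775 and 0.791 in Rag1-/-, the one family-wide measure here whose groups did not overlap. With 3 libraries against 2 there are only 10 splits, so an exact rank test (two-sided) cannot give a p below 0.2.

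No RP gene was called in either direction by edgeR's quasi-likelihood test (adjusted p-value under 0.05 and a log2 fold change beyond 1 in size). Of all 19011 genes tested, 5.73% were called, 3.57% higher and 2.16% lower in Rag1-/-. The 85 RP genes tested included all 40S and 60S genes, and Rpl6l, Rps3a2 and Rps12l1 had too few counts. Of the 85, 9 had an unadjusted p under 0.05 (26.4% of all genes did). DESeq2 called 1 RP gene, Rpl10l, while it called 13.7% of all genes. The median log2 fold change was 0.29 over the 85 genes, against 0.02 over all genes, and 72 had a positive value (51.4% of all genes). It was 0.34 over the 40S genes and 0.29 over the 60S genes.

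**Figure D2:**
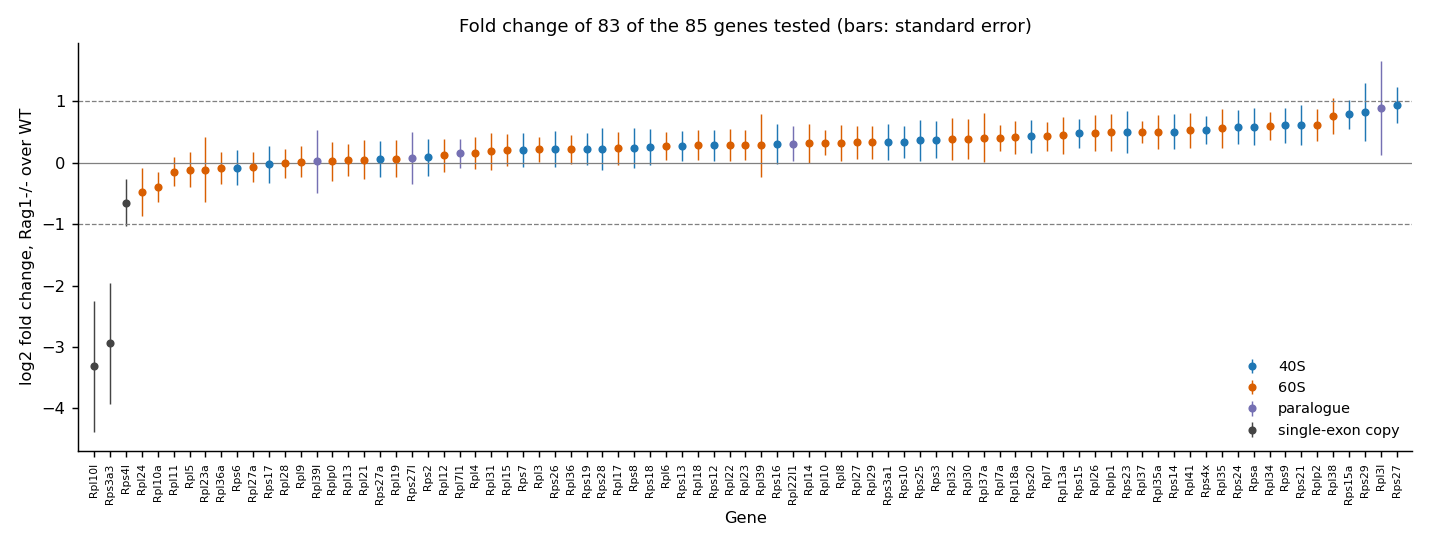
The log2 fold change (Rag1-/- over WT) of 83 of the 85 RP genes tested, in order of size, with the standard error as a bar and the call limits of -1 and 1 as dashed lines. The 40S (blue) and 60S (orange) genes lie between -0.47 and 0.94, and the single-exon copies Rpl10l and Rps3a3 lie far below them.

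The positive median came from pool 7. Set against the WT mean, the median difference of the 85 genes (log2 CPM, counts scaled to a common library total, after TMM scaling) was -0.14 in pool 2 and 0.65 in pool 7. Of the 85, 67 were highest in pool 7 (20.4% of all genes were) and 2 in pool 2 (31.1% of all genes). Pool 7 exceeded the WT mean by more than 0.5 at 55 of them, as it did at 24.9% of all genes. Refitted without pool 7, the median fell to -0.20 (-0.09 over all genes) with 24 genes positive. In that fit 3 were called lower (Rpl39, Rps27l and Rps4l), while 12.1% of all genes were called in either direction. Without pool 2 the median was 0.65, and no gene of the whole table was called. Of the 85 genes, 73 were above the WT mean in pool 7 and 27 in pool 2, which was also the shallowest library.

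**Figure D3:**
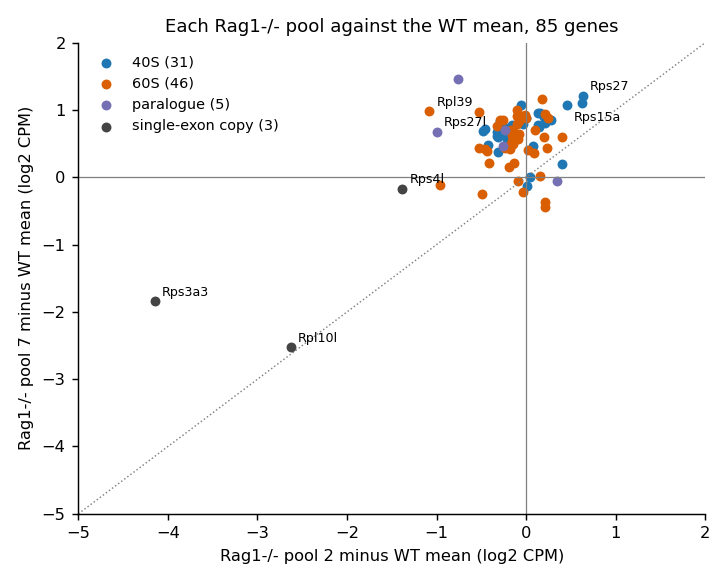
Difference from the WT mean (log2 CPM) of each RP gene tested, in Rag1-/- pool 2 (horizontal) and pool 7 (vertical). Most 40S (blue) and 60S (orange) genes lie above 0 in pool 7 and close to 0 or below in pool 2, and the dotted line marks equal differences.

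The groups did not overlap at 18 of the 85 genes. In 15 of them both Rag1-/- pools were above every WT pool (21.9% of all genes) and in 3 both were below (24% of all genes). The 15 included Rps4x, Rps9, Rps15, Rps15a, Rps27, Rps29 and Rpsa of the 40S subunit and Rpl7, Rpl7a, Rpl10, Rpl34, Rpl37, Rpl38 and Rplp2 of the 60S subunit. The 3 lower ones were Rpl10l, Rps3a3 and Rpl36a, whose lowest WT value was 7.59 CPM and highest Rag1-/- value 7.58 CPM. Neither share exceeded that over all genes.

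Among 40S genes, Rps15a (chromosome 7, 118104372 to 118116188, GRCm38) had the lowest p-value of the family. Its CPM was 154, 175 and 177 in WT pools 5, 6 and 13 and 231 and 339 in Rag1-/- pools 2 and 7. Every Rag1-/- value was above every WT value, yet the change was not called by edgeR (log2 fold change 0.79, SE 0.235, adjusted p = 0.0899). DESeq2 gave it an adjusted p of 0.0300 and a log2 fold change of 0.77, short of the fold limit alone. Rps27, a zinc-finger protein of the 40S subunit (chromosome 3, 90212522 to 90213651), had the largest log2 fold change of the family, 0.94 (SE 0.287, edgeR adjusted p = 0.0955). DESeq2 gave Rps27 an adjusted p of 0.0363 and a log2 fold change of 0.92, also short of the fold limit alone. It had 9.41, 14.0 and 10.7 CPM in WT and 17.4 and 24.9 CPM in Rag1-/-. Rps29, which also carries a zinc finger, was scarce at 1.24, 3.04 and 2.09 CPM in WT and 3.11 and 4.19 CPM in Rag1-/-, so that pool 2 barely exceeded WT pool 6 (log2 fold change 0.83, SE 0.479).

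Rps3 and Rps9 were among the most abundant 40S genes. Rps3, whose protein lines the entry of the mRNA channel, had 1187, 1062 and 1124 CPM in WT and 1003 and 1836 CPM in Rag1-/-. It had its lowest value in one Rag1-/- pool and its highest in the other. Rps9 differed in that both Rag1-/- pools (734 and 1218 CPM) were above the WT pools (630.4, 643 and 703 CPM), with a log2 fold change of 0.61 (SE 0.277, adjusted p = 0.216). Rps6, the substrate of the S6 kinases, had few counts for its role (9.46, 9.52 and 6.83 CPM in WT, 8.57 and 7.42 CPM in Rag1-/-), and its groups overlapped. Rpsa, also known as the laminin receptor precursor, had 8.20, 7.55 and 6.25 CPM in WT and 8.82 and 12.6 CPM in Rag1-/- (log2 fold change 0.59, adjusted p = 0.254). Rps27a, made as a fusion with ubiquitin, had 23.4, 36.4 and 28.4 CPM in WT and 23.2 and 36.0 CPM in Rag1-/-, so that neither genotype stood apart.

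Among 60S genes, Rpl4 and Rpl8 were the most abundant in summed CPM. Rpl4, which reaches into the peptide exit tunnel, had 1649, 1555 and 1654 CPM in WT and 1433 and 2074 CPM in Rag1-/-. Rpl8, next to the peptidyl transferase centre, had 1253, 1136 and 1119 CPM in WT and 1056 and 1801 CPM in Rag1-/-. Rpl13a, known for a second role in interferon-gamma dependent silencing of inflammatory mRNAs, had 927, 856 and 934 CPM in WT and 857 and 1546 CPM in Rag1-/-. All of these were lowest or nearly lowest in pool 2 and highest in pool 7. Rpl38 (chromosome 11, 114668524 to 114672331), needed for patterning of the mouse skeleton, had the largest log2 fold change of the 60S genes, 0.76 (SE 0.293, adjusted p = 0.156). Its CPM was 36.0, 41.3 and 37.9 in WT, 43.4 in pool 2 and 82.7 in pool 7, so that pool 2 stood just above WT pool 6. At the other end, Rpl24 (4.72, 5.95 and 4.22 CPM in WT, 2.48 and 4.32 CPM in Rag1-/-) had a log2 fold change of -0.47 and Rpl10a (97.6, 99.98 and 66.2 CPM in WT, 61.5 and 69.7 CPM in Rag1-/-) one of -0.39. In both, a Rag1-/- pool fell within the WT range.

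The ribosomal stalk, on which elongation factors land, is made of Rplp0, Rplp1 and Rplp2. Rplp0 had 1328, 1175 and 1114 CPM in WT and 834 and 1554 CPM in Rag1-/- (log2 fold change 0.03, SE 0.318). Rplp1 had 619.6, 645 and 667 CPM in WT and 620.0 and 1146 CPM in Rag1-/- (0.50, SE 0.302). Rplp2 had 316, 346 and 327 CPM in WT and 382 and 603 CPM in Rag1-/- (0.62, SE 0.257, adjusted p = 0.180). Only for Rplp2 of the 3 did the groups not overlap. Of the RPs whose symbols fall outside the rule, Rack1 (listed as Gnb2l1), the signalling scaffold on the 40S head, had 1465, 1326 and 1264 CPM in WT and 1217 and 2001 CPM in Rag1-/-. Fau, a ubiquitin-like fusion of Rps30, had 14.4, 10.9 and 9.35 CPM in WT and 11.3 and 14.1 CPM in Rag1-/-. Neither was called, and their groups overlapped.

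Some of the 5 paralogues with introns stand in for a partner in certain tissues, such as Rpl3l in striated muscle and Rpl39l in testis. The mRNAs of the 5 were 62.6% to 83.1% identical to those of the partners over the aligned bases. Rpl3l was close to absent (0.309, 0.456 and 0.698 CPM in WT, 0.248 and 1.34 CPM in Rag1-/-), while Rpl3 had 93.0, 94.2 and 76.7 CPM in WT and 89.1 and 111 CPM in Rag1-/-. The log2 fold change of Rpl3l, 0.89, had an SE of 0.762. Rpl22l1 had 53.7, 59.5 and 65.6 CPM in WT and 50.6 and 92.9 CPM in Rag1-/-, which was 19.5% to 23.8% of the CPM of Rpl22 in every pool. Rpl7l1 stood at 24.1%, 23.1% and 25.2% of the CPM of Rpl7 in WT and at 18.9% and 20.4% in Rag1-/-, lower in both Rag1-/- pools. Rpl39l stood at 4.46, 1.55 and 2.94 CPM in WT and 3.48 and 2.52 CPM in Rag1-/-. Rpl39, its partner on the X chromosome, ranged from 42.2 to 59.6 CPM in WT but was 23.2 CPM in pool 2 and 92.9 CPM in pool 7. Rps27l, a target of p53, behaved likewise, with 43.2, 43.2 and 48.7 CPM in WT, 22.5 CPM in pool 2 and 68.8 CPM in pool 7. Among the genes with introns whose mean CPM was above 10, these 2 showed the widest gap between the Rag1-/- pools on the log2 scale.

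The 3 single-exon copies tested, Rpl10l, Rps3a3 and Rps4l, had negative log2 fold changes, none of them called. Rpl10l (chromosome 12, 66283379 to 66284401), a retroposed copy of Rpl10 known from testis, received 584 counts in WT pool 5, 116 in pool 6 and 53 in pool 13, while Rag1-/- pool 2 held 5 and pool 7 held 25. This was 15.1, 2.94 and 1.61 CPM in WT against 0.621 and 0.642 CPM. Rps3a3 (chromosome 13, 108670603 to 108671397), annotated as a processed pseudogene, had 42.9, 10.3 and 6.59 CPM in WT and 0.745 and 3.78 CPM in Rag1-/-. In both, the groups did not overlap, and the spread among the WT pools was wider than the gap to the Rag1-/- pools. The log2 fold change was -3.31 for Rpl10l (SE 1.07, adjusted p = 0.109) and -2.94 for Rps3a3 (SE 0.986, adjusted p = 0.118). Without WT pool 5 it was -1.81 and -1.74. Rps4l (chromosome 6, 148354656 to 148355598) had 21.8, 18.0 and 14.7 CPM in WT and 6.83 and 15.3 CPM in Rag1-/-, overlapping in pool 7 (log2 fold change -0.65, SE 0.384). Rpl6l and Rps3a2 stayed under 0.2 CPM in every pool and Rps12l1 had 0 counts in all. By counting error alone, 0 counts allow up to 3 counts a library. Rps12l1 was 100% identical to Rps12 over 399 aligned bases, and all of its stretches of read length also occurred in other genes. Its 0 counts therefore do not limit its expression, since how such reads were counted is not given. Of such stretches, 90.2% were shared in Rps3a2 and 76.4% in Rpl6l, so their low levels are uncertain too.

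**Figure D4:**
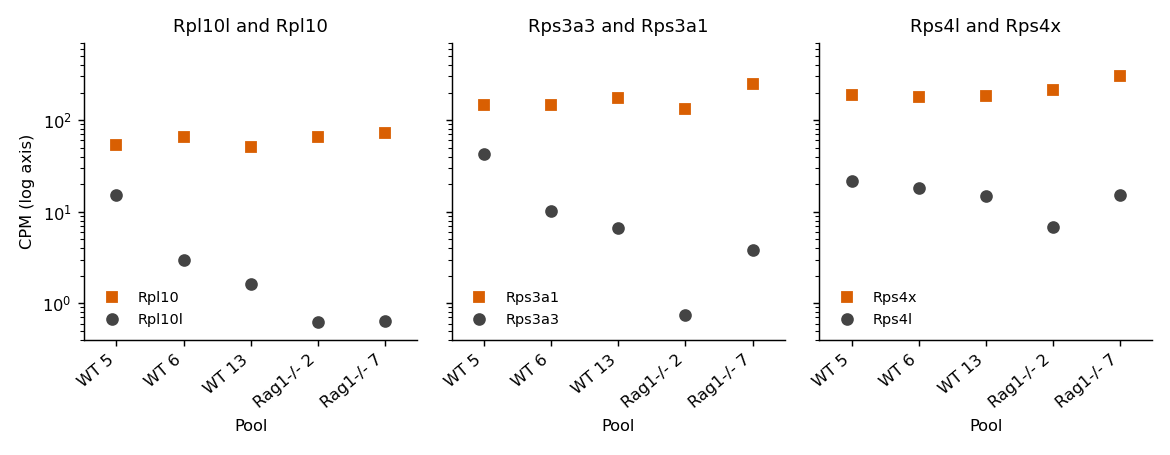
CPM (log axis) of 3 single-exon copies (dark circles) and of the genes they were copied from (orange squares) in the 5 pools. Rpl10l and Rps3a3 are highest in WT pool 5 and lowest in Rag1-/- pool 2, while Rpl10 and Rps3a1 change little by comparison.

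How far a 50-base read can tell a copy from its source differs between these pairs. Rpl10l was 83.8% identical to Rpl10 over 678 aligned bases, and 7.60% of its 50-base windows also occurred in another gene. Rps3a3 was 98.9% identical to Rps3a1 over 795 bases, and 65.1% of its windows occurred elsewhere. The 50-base stretch in which each pair differs most is shown to make this visible, with the differing bases in capitals.
Rpl10l: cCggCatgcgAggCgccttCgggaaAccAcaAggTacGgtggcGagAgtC
Rpl10: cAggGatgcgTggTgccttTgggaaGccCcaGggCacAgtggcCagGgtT
Rps3a3: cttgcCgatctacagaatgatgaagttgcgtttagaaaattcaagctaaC
Rps3a1: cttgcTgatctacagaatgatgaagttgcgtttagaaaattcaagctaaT
The Rpl10 stretch differs at 13 bases and the Rps3a1 stretch at 2, while the alignment allowed up to 2 mismatches. Counts of Rps3a3 are therefore uncertain, and those of Rpl10l less so.

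Rows of processed copies outside the rule were also examined. The 274 rows named as RP pseudogenes took 0.0416% of the counts in WT pool 5, 0.0132% and 0.0106% in pools 6 and 13, and 0.00883% and 0.0129% in Rag1-/- pools 2 and 7. Of the 83 such rows with at least 50 counts in all, 57 were highest in WT pool 5, 6 in Rag1-/- pool 2 and 18 in pool 7. WT pool 5 was likewise the highest for 58 of 121 other pseudogene rows, for 642 of 1907 other single-exon rows and for 23.1% of all genes tested. WT pool 5 also had the smallest leukocyte share (0.175% against 0.374% and 0.358%) and the largest keratinocyte share. The part of cell content in these rows was not tested.

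Per kilobase of transcript, the 77 genes of 40S and 60S proteins ranged from 1.68 CPM (Rpl23a) to 1496 CPM (Rpl8), averaged over the 5 pools. Their proteins are needed in nearly equal numbers. The order of the genes was almost the same in all pools, with correlations of log2 CPM between pools of 0.985 to 0.996 across the members. A low level went with sequence shared with other genes. A median of 52.3% of a gene's 50-base windows also occurred in a transcript of another gene elsewhere in the genome, and at most 98.6%, in Rps27. Genes with under 50% shared windows (35 of 77) had a median of 279.5 CPM per kilobase, and the 4 genes with over 90% had 55.2. Across the 77 genes, the shared percentage and the log2 CPM per kilobase had a Pearson r of -0.46 and a Spearman rho of -0.46, a description over genes of the same libraries, which are not independent replicates.

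**Figure D5:**
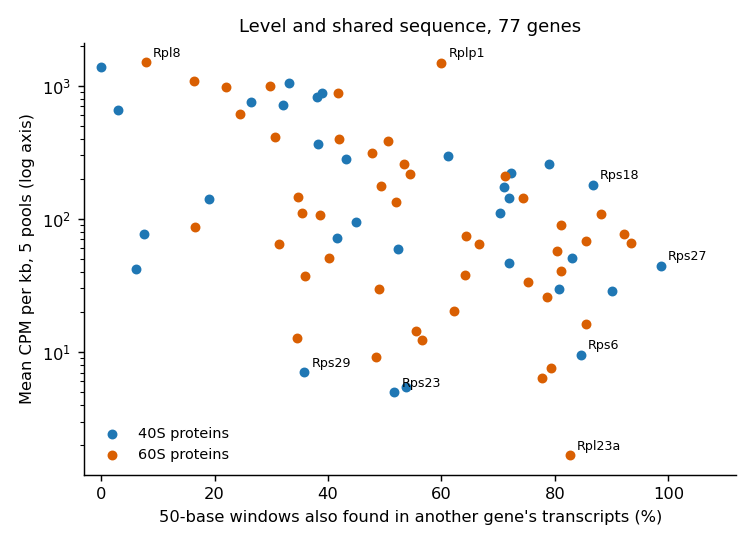
Mean CPM per kilobase over the 5 pools (log axis) against the percentage of a gene's 50-base windows that also occur in transcripts of other genes, for the 77 genes of 40S (blue) and 60S (orange) proteins. Rpl8 lies at the upper left, and Rpl23a and Rps6 at the lower right, with a wide scatter between.

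Rps6 and Rpl23a show what such sharing looks like. The stretches below lie in their coding sequences and occur letter for letter in transcripts of 13 and 17 other genes.
Rps6: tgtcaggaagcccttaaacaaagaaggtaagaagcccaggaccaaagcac
Rpl23a: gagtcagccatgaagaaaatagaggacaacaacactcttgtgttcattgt
Of the windows of Rps6, 84.6% were shared, and its 9.52 CPM per kilobase stood beside 1496 for Rpl8, with 7.86% shared. Other genes departed from this relation. Rps29 had 7.01 CPM per kilobase with 35.8% shared, and Rps18 had 180 with 86.7% shared. How the authors' counting treated reads that fit several places is not given in the sources used here, so levels of genes with much shared sequence are uncertain. The log2 fold change between the genotypes also went with the shared percentage across the 77 genes (Spearman rho -0.42). Its median was 0.39 over the 35 genes under 50% shared, 0.31 over the 4 genes over 90% shared and 0.31 over all 77. Genes between these limits were in neither group, and the 4 genes included Rps27, with the largest value of the family (0.94). For the 66 genes with at least 100 other windows, leaving shared windows out of the length lowered the SD of log2 CPM per kilobase from 2.27 to 2.09. Genes with fewer other windows, among them Rpl23a and Rps27, were left out, and only exact matches counted as shared. The part of shared sequence in the spread between RP genes was not tested.

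The promoters of RP genes carry the start of the pyrimidine tract and a few recurring motifs. RefSeq promoters (GRCm38.p6, 250 bases before to 50 bases after the start) were matched to 63 of the 88 genes, 57 of them for 40S or 60S proteins. A run of at least 7 C or T that begins with C, on the transcribed strand and within 25 bases of the start, was present in 57.9% of the 57 and in 25.6% of 27025 genes with a promoter. On either strand of the whole window, CCGGAAG, the core of ETS sites, was present in 42.1% and in 9.93% of all genes. AAGATGG, part of the YY1 site, was present in 15.8% and 7.28%. The start regions of 4 genes with both Rag1-/- pools above WT, chosen after their values were seen, are shown with that of Rpl10l. Capitals mark the longest C or T run of the kind defined above.
Rps15a, chr7:118116123-118116172, minus strand: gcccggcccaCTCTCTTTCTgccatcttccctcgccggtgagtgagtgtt
Rps27, chr3:90213624-90213673, minus strand: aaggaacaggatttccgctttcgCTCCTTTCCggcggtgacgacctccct
Rpl38, chr11:114668555-114668604, plus strand: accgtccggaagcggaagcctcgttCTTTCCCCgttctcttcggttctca
Rplp2, chr7:141447626-141447675, plus strand: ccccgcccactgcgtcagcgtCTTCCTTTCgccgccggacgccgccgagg
Rpl10l, chr12:66284377-66284426, minus strand: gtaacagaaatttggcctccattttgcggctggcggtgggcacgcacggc
Such a run was found in the first 4 and not in that of Rpl10l. It began at position -15 in Rps15a, -2 in Rps27, -4 in Rplp2 and 1 in Rpl38, where 1 is the start. In Rps15a the marked run thus ended before the start, and a shorter run of this kind began at the start. Rps6 held one as well (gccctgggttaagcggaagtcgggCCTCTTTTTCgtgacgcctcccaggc, chr4:86857343-86857392, minus strand), and its groups overlapped.

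Genes that make and regulate ribosomes were listed apart, 196 of them tested. Of these, 1 was called higher and 3 lower (5.73% of all genes were called), with a median log2 fold change of -0.07. DESeq2 called 9 of them, against 13.7% of all genes. Myc, whose product drives ribosome production, was lower in Rag1-/-, with 268, 237 and 229 CPM in WT and 107 and 117 CPM in Rag1-/- (log2 fold change -1.10, SE 0.198, adjusted p = 0.0329). Mxd1, which competes with MYC for its partner MAX, was higher, with 100.2, 149 and 133 CPM in WT and 283 and 269.8 CPM in Rag1-/- (1.15, SE 0.226, adjusted p = 0.0370). The WT and Rag1-/- pools of both genes stood well apart. Deptor, an inhibitor of mTOR, was lower (72.0, 73.0 and 77.2 CPM against 30.7 and 36.5 CPM, log2 fold change -1.10, adjusted p = 0.0319), as was Map3k20, listed as Zak, a kinase that senses collided ribosomes (115, 114 and 86.3 CPM against 45.2 and 44.9 CPM, -1.19, adjusted p = 0.0329). All 4 calls were lost when any WT pool or pool 2 was left out, settings in which no gene of the whole table was called, and that of Deptor also with an offset for gene length (adjusted p = 0.0653).

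Most of these lists had medians below that of the RP genes. Of all genes tested, 51.4% had a positive value, 26.4% had an unadjusted p under 0.05 and 5.73% were called. The 43 ribosome biogenesis genes had a median log2 fold change of -0.26, with 7 positive, 7 at an unadjusted p under 0.05 and none called. Their medians were -0.42 in pool 2 and -0.15 in pool 7. Both pools were thus on the same side. The lowest p among them was that of Nop58, a core protein of snoRNPs that guide rRNA methylation (210.3, 217 and 224 CPM in WT, 130.2 and 104 CPM in Rag1-/-), which had a log2 fold change of -0.86 and an adjusted p of 0.0472, short of the fold limit. A list of 20 other genes whose mRNAs begin with a pyrimidine tract held mostly translation factors, but also genes such as Hnrnpa1 and Nap1l1. The 20 genes had a median of 0.11 with 15 positive, 1 at an unadjusted p under 0.05 and none called. Eif3h had the lowest p among them (232, 217 and 238 CPM against 274 and 399 CPM, adjusted p = 0.162). The 31 other initiation and elongation factors had a median of -0.13, with 12 positive, 6 at an unadjusted p under 0.05 and none called. Eif2s2, a subunit of eIF2, had 84.1, 76.9 and 81.6 CPM in WT and 51.8 and 45.6 CPM in Rag1-/- (-0.70, adjusted p = 0.0624).

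The 15 snoRNA host genes had a median of 0.25, and Snhg5 among them a log2 fold change of 1.10 (30.5, 49.3 and 47.5 CPM against 75.9 and 101 CPM, adjusted p = 0.0604). RNA polymerase I and rDNA factors had a median of 0.11 over 17 genes, with Taf1a at -0.68 (adjusted p = 0.0833). The 12 chaperones and importers of RPs had a median of 0.03, with Heatr3, which carries Rpl5, at -0.73 (adjusted p = 0.0804). None of these 3 lists had a called gene, and each had 2 at an unadjusted p under 0.05. The 5 RPs outside the rule had a median of 0.18 with all 5 positive, the 26 genes of mTORC1, LARP1 and the S6 kinases one of -0.12 with Deptor called lower, and the 15 genes of ribosome quality control one of -0.15 with Map3k20 called lower. The 12 genes of the MYC network had a median of 0.37, with Myc called lower and Mxd1 called higher (5.73% of all genes were called). At an unadjusted p under 0.05 were 7 genes of the MYC network, 5 of the mTORC1 list, 2 of ribosome quality control and 0 of the RPs outside the rule (26.4% of all genes were).

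Other sets of genes were set beside the RP genes in each Rag1-/- pool. Of other genes with a transcript of 400 to 1000 bases and a mean log2 CPM above 5 (577 genes), the median difference from the WT mean was 0.01 in pool 2 and 0.23 in pool 7. The 37 RP genes of the same length and level had -0.14 and 0.74. For the 3266 other genes over 3000 bases, the medians were 0.04 and -0.12. The 73 mitochondrial ribosomal proteins, which translate the mitochondrial genome, had -0.12 in pool 2 and 0.47 in pool 7, and 86 subunits of the respiratory chain had -0.25 and 0.60. Like the RP genes, both of these lists were below the WT mean in pool 2 and above it in pool 7 by their medians. An offset for gene length left the RP median at 0.25.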

How the data were processed

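The deposited table held read counts per gene, made by the authors from single-end 50-base reads of poly(A) libraries. The submitters' processing notes name STAR 2.5 and featureCounts 1.5.0-p1, and the files use GRCm38; the sources name different annotation releases, and strandedness is not stated. The authors also deposited normalized values, not used here. Replicates were pools of mice. All genes were fitted in edgeR 4.0.16 under R 4.3.3 (quasi-likelihood test after TMM scaling, low counts removed by filterByExpr, Benjamini-Hochberg adjustment) with genotype as the factor, the thresholds following the study. Alternatives used DESeq2 1.42.0, other scalings and filters, a length offset, thinning and each library left out. The procedure was tested on simulated data. Log2 CPM used a prior count of 2. Shared 50-base windows were counted in GENCODE M21 transcripts (the principal transcript of each gene, both strands), and identities were aligned with Biopython 1.88. The deposited transcript length, per the file headers in bases, served the length comparisons.

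Members and lists were chosen with earlier results of these data known. Named genes were the 8 most abundant RP genes, the 5 highest and 5 lowest log2 fold changes, the paralogues with their partners, the stalk, ubiquitin-fused and signalling-linked RPs, the RP gene with the lowest p, and per list the called genes or else the one with the lowest p. Some genes that these rules select are not reported here. Further RP genes named for non-overlap or a call without pool 7 were chosen after their values were seen. Listed genes Polr1f, Polr1g, Polr1h and Gcn1 had no row under these symbols. Count limits cover counting error only.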

Additional observations from a re-analysis of the deposited data

How the results depend on the processing

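Of 72 main values recomputed under other settings (scaling, filter, tool, length offset, thinning), 67 kept their direction and moved by less than the spread between pools or 1.5 times. The number of RP genes called lower was 0 in the main fit, 1 by DESeq2 and 2 with no low-count filter, and the called genes of the companion lists went from 4 to 9 by DESeq2, 9 with no filter and 7 where every library had at least 10 counts. The cause was not tested. RP genes called higher stayed at 0 in every setting, with medians of 0.23 to 0.31 outside the fits that leave out a library. With a library left out, the median ranged from -0.20 to 0.65 over the RP genes, from -0.10 to 0.74 over the 40S genes and from -0.17 to 0.61 over the 60S genes. The log2 ratio of the RP share ranged from -0.12 to 0.64, the RP genes with a positive value from 24 to 75, those called lower from 0 to 3 and the called companion genes from 0 to 12. The negative medians, the negative ratio and the 3 genes called lower came without Rag1-/- pool 7. A pool left alone in its group is assumed to vary like the others, and no gene at all was called without any 1 WT pool or without pool 2.

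Values near 0 changed sign. Rpl39l was -0.010 by DESeq2, -0.0084 with RLE scaling, -0.011 by library size alone, -0.053 with no filter, -0.030 with 10 counts in every library, -0.042 with the length offset and -0.033 after thinning. Rplp0 was -0.013 by library size alone, -0.022 with no filter, -0.019 with 10 counts and -0.096 with the offset. Rps27a was -0.0070 with the offset. The median of RP chaperones was -8.0e-05 by library size alone, -0.038 with no filter and -0.012 with 10 counts.

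With a library left out, the log2 fold change ranged from -0.40 to 0.36 for Rps27a, -0.29 to 0.43 for Rpl39l, -0.23 to 0.0063 for Rps6, -0.59 to 0.44 for Rplp0, -0.10 to 0.36 for Fau, -0.21 to 0.64 for Rack1 (Gnb2l1), -0.14 to 0.84 for Rpl13a, -0.22 to 0.63 for Rpl22, -0.30 to 0.71 for Rpl22l1, -0.044 to 0.40 for Rpl3, -1.16 to 0.98 for Rpl39, -1.01 to 1.52 for Rpl3l, -0.24 to 0.43 for Rpl4, -0.32 to 0.47 for Rpl7l1, -0.21 to 0.69 for Rpl8, -0.11 to 0.90 for Rplp1, -1.06 to 0.68 for Rps27l and -0.23 to 0.78 for Rps3. The list medians ranged from -0.16 to 0.080 for RP chaperones, -0.36 to 0.058 for other initiation and elongation factors, -0.21 to 0.59 for RPs outside the rule, -0.035 to 0.27 for the list of mostly translation factors with a pyrimidine tract, -0.17 to 0.29 for RNA polymerase I factors and -0.077 to 0.45 for snoRNA host genes. No paired analysis was possible because the genotypes share no replicate numbers. Depth limits pool 2, whose total was the smallest.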
